A study of Homo sapiens with 2 samples.

Results

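The interferon-stimulated genes described here are 31 genes that cells are known to turn on after interferon, chosen by their symbols. All 31 were found among the 26485 genes of a table of RNA sequencing counts. The table covers SK-LMS-1 and SK-UT-1, both established human leiomyosarcoma lines, that is, lines from malignant tumours of smooth muscle origin. SK-LMS-1 came from a tumour of the vulva and SK-UT-1 from a tumour of the uterus. The SK-LMS-1 group was SK-LMS-1 cells treated with DMSO, a solvent, and the SK-UT-1 group was SK-UT-1 cells treated with DMSO. The series concerns an inhibitor of the histone methyltransferase SUV39H2 combined with a drug against poly (ADP-ribose) polymerases, and only the solvent libraries were compared here. Each line had 1 library of total RNA, so no difference has a replicate check, no p-value is given, and every comparison is between these 2 libraries.

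Type I and type III interferons are secreted when a cell senses viral nucleic acid. They bind receptors that carry the kinases JAK1 and TYK2, which phosphorylate STAT proteins. STAT2 and IRF9 are parts of the resulting complex, ISGF3, which binds the interferon-stimulated response element in the promoters of its target genes and raises their transcription. Many of the products block viral RNA, viral proteins or virus release, and a basal level of the genes is also seen in tumour cells without added interferon.

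The libraries held 6906280 counts in SK-LMS-1 cells and 7635850 in SK-UT-1 cells, and a count was found for 16383 genes in SK-LMS-1 cells and 16741 in SK-UT-1 cells. Levels are given in CPM, the count relative to the size of its library after TMM scaling (a trimmed mean of log ratios), so that 1 CPM equals 6.55 counts in SK-LMS-1 cells and 8.05 in SK-UT-1 cells. Ratios are SK-LMS-1 over SK-UT-1, and ranges after a fold are exact 95% intervals from the conditional binomial distribution. Of the 8 smooth muscle markers 7 were measured, of which 3 stood higher in SK-LMS-1 by 2-fold or more (CALD1, CNN1, TAGLN), 3 did so in SK-UT-1 (ACTA2, DES, LMOD1) and SMTN lay within 2-fold. CALD1, an actin-binding protein, was the most abundant at 749 CPM in SK-LMS-1 cells and 343 CPM in SK-UT-1 cells. Low markers were MYH11, DES and LMOD1. MYH11 had 5 counts in SK-LMS-1 cells and 2 in SK-UT-1 cells, and DES had 1 in SK-LMS-1 cells and 26 in SK-UT-1 cells. LMOD1 had 4 counts in SK-LMS-1 cells and 10 in SK-UT-1 cells. The other markers were not all low, with SMTN at 216 CPM in SK-LMS-1 cells and 109 CPM in SK-UT-1 cells. In the higher library, TAGLN reached 61.8 CPM (SK-LMS-1) and ACTA2 54.0 CPM (SK-UT-1). Defining leukocyte markers (PTPRC, MS4A1, LYZ, TYROBP) and endothelial markers (VWF, KDR, TEK) had 0 counts in both libraries. The 5 endothelial markers summed to 10 counts in SK-LMS-1, of which PECAM1, an adhesion molecule of endothelium and platelets, gave 8, against 0 in SK-UT-1. The 10 leukocyte markers summed to 606 counts in SK-LMS-1 cells and 128 in SK-UT-1 cells, of which CD68, a lysosomal protein, gave 602 in SK-LMS-1 cells and 117 in SK-UT-1 cells. Their part in the results was not tested.

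As a group the interferon-stimulated genes stood lower in SK-LMS-1 than in SK-UT-1, and the difference was carried by some of them rather than shared by all. Genes that reached 1 CPM in at least 1 of the libraries counted as measured, and 30 of the 31 did. Of these 30, 3 genes stood higher in SK-LMS-1 by 2-fold or more, against 21.9% of all 14324 measured genes. Another 14 (46.7%) were higher in SK-UT-1 by 2-fold or more, against 18.3% of all measured genes, and 13 lay within 2-fold. The 3 genes higher in SK-LMS-1 were IFI44, IFI44L and DDX60. The 14 genes higher in SK-UT-1 were OAS1, OAS2, OAS3, OASL, IFIT1, MX1, MX2, IFITM1, IFITM2, BST2, CMPK2, ISG15, IFI6 and IFI27. The median log2 ratio was -0.87 over the measured members and 0.01 over all measured genes. Over the 22 members with 10 counts or more in both libraries, a filter that removes genes near 0 in either line, the median was -0.22. Of these, 2 (DDX60 and IFI44L) stood higher in SK-LMS-1 by 2-fold or more, against 15.4% of all genes past that filter, and 7 in SK-UT-1, against 12.1%. With the whole interval required beyond 2-fold, 3 members stood higher in SK-LMS-1, against 15.1% of all measured genes, and 9 in SK-UT-1, against 10.1%. Among these 9, OAS1, MX2, IFITM1 and BST2 were under 1 CPM in SK-LMS-1 and counted as measured only through SK-UT-1. For these genes the filter itself favours that direction.

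**Figure D1:**
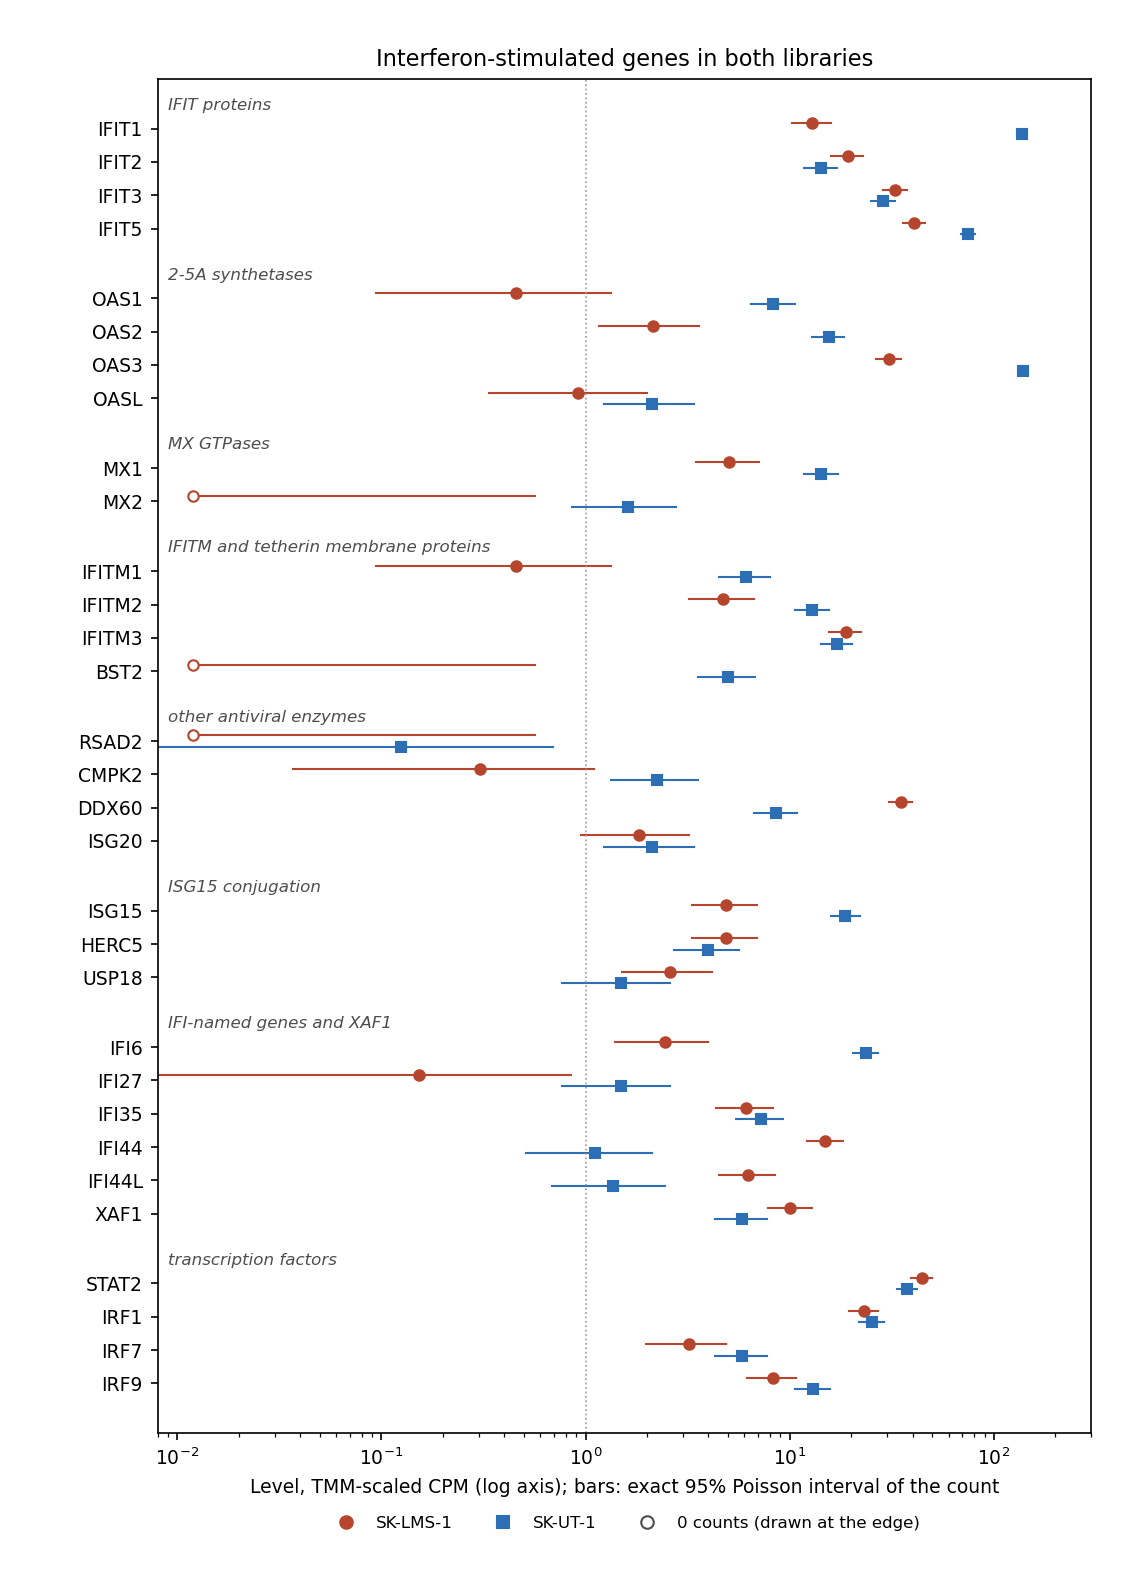
Level of each of the 31 genes in TMM-scaled CPM on a log axis, grouped by role, with SK-LMS-1 as red circles and SK-UT-1 as blue squares. Bars are exact 95% Poisson intervals of the count, open circles at the left edge mark 0 counts, and the dotted line marks 1 CPM. IFIT1 and OAS3 stand highest in SK-UT-1 at 137 and 139 CPM, and MX2, BST2 and RSAD2 have 0 counts in SK-LMS-1.

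Low genes have more scattered ratios, so the calls were also set against genes of the same mean level. Under 5 CPM, 1 of 12 measured members was higher in SK-LMS-1 cells and 7 in SK-UT-1 cells, where 34.7% of all such genes were higher in SK-LMS-1 cells and 35.9% in SK-UT-1 cells. These 7 (OAS1, OASL, MX2, IFITM1, BST2, CMPK2 and IFI27) were all under 1 CPM in SK-LMS-1 and counted as measured only through SK-UT-1, so the filter itself favours that direction for them. From 5 to under 50 CPM, 2 of 15 were higher in SK-LMS-1 cells and 5 in SK-UT-1 cells, where the shares over all genes were 20.6% towards SK-LMS-1 and 16.9% towards SK-UT-1. At 50 CPM or more, none of 3 (IFIT1, IFIT5 and OAS3) was higher in SK-LMS-1 and 2 were in SK-UT-1, where the shares were 14.9% towards SK-LMS-1 and 7.92% towards SK-UT-1. At 4-fold, 3 members were higher in SK-LMS-1 cells and 8 in SK-UT-1 cells, against 11.4% and 7.30% of all measured genes. Among the 8 are OAS1, IFITM1, BST2 and CMPK2, which counted as measured only through SK-UT-1.

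Fewer members reached 1 CPM, and fewer reached 10 CPM, in SK-LMS-1. There 23 of the 31 genes reached 1 CPM and 11 reached 10 CPM, whereas in SK-UT-1 30 reached 1 CPM and 14 reached 10 CPM. The members that reached 1 CPM only in SK-UT-1 were OAS1, OASL, MX2, IFITM1, BST2, CMPK2 and IFI27. Shares of all genes at these levels are not given here, so the counts stand without a background. Together the 31 genes took 2208 counts in SK-LMS-1, 0.0320% of the library (exact 95% Clopper-Pearson interval 0.0307 to 0.0333), and 5127 counts in SK-UT-1, 0.0671% (0.0653 to 0.0690). The leading genes were not the same. STAT2, IFIT5 and DDX60 gave 35.6% of the member counts in SK-LMS-1, and OAS3, IFIT1 and IFIT5 gave 55.2% in SK-UT-1. Without OAS3, the most abundant, the shares of the library were 0.0291% in SK-LMS-1 cells and 0.0525% in SK-UT-1 cells. Without OAS3, IFIT1 and IFIT5, a choice made after the values were seen, they were 0.0240% in SK-LMS-1 cells and 0.0301% in SK-UT-1 cells. In bulk RNA, a smaller share of cells with the transcript and less transcript per cell cannot be told apart.

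**Figure D2:**
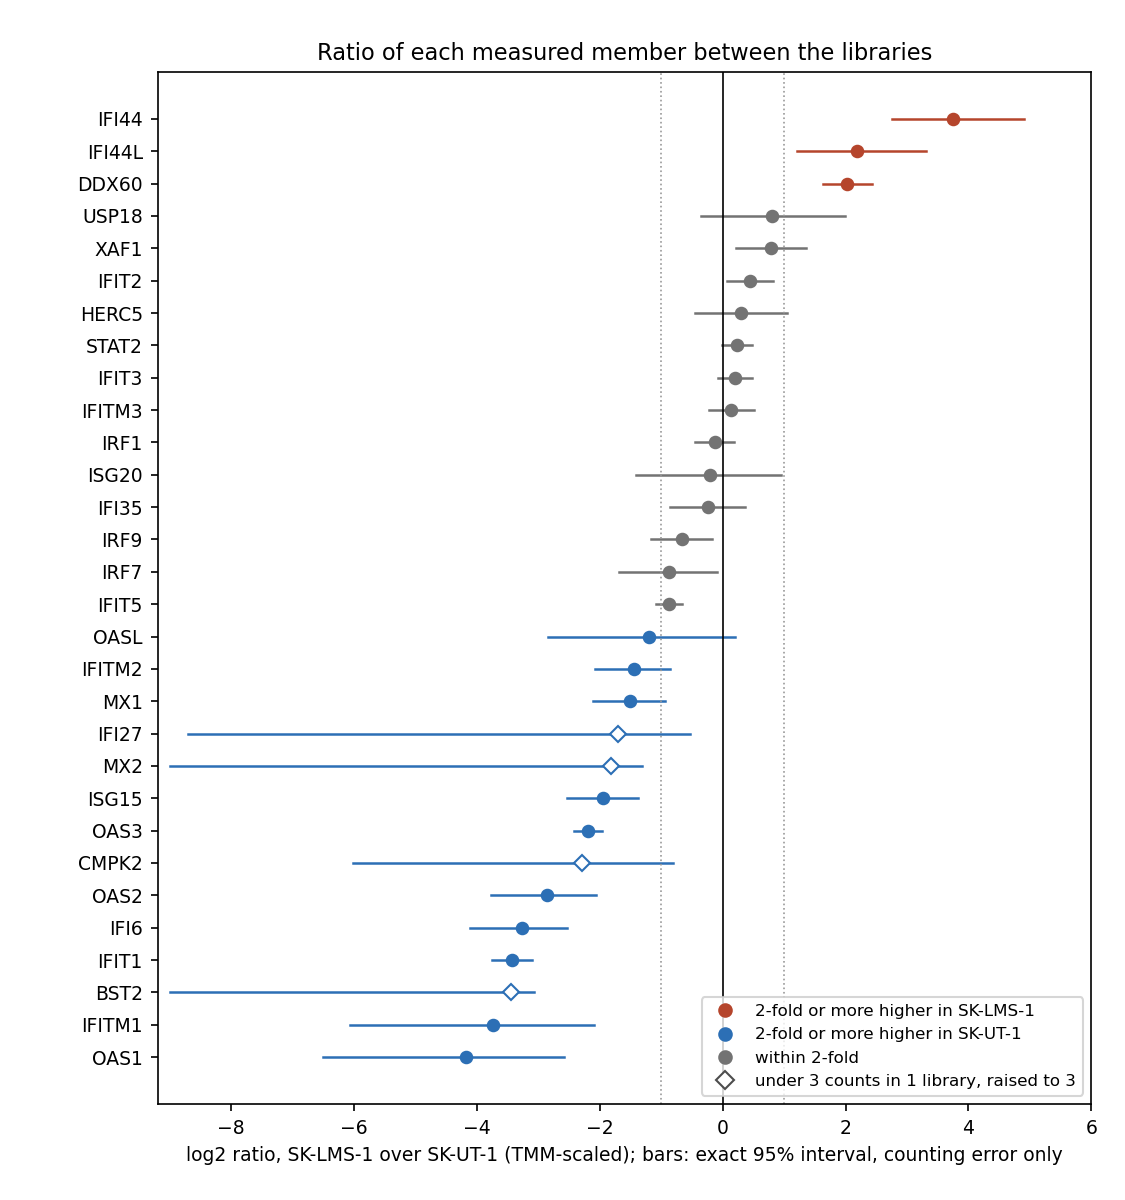
log2 ratio of SK-LMS-1 over SK-UT-1 for the 30 measured members, in order of the ratio, with exact 95% intervals that cover counting error only. Dotted lines mark 2-fold, open diamonds mark genes under 3 counts in SK-LMS-1 with that count raised to 3, and intervals of MX2 and BST2 run off the left side. IFI44 stands highest at 3.74 and OAS1 lowest at -4.18.

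The response element can be read in the promoters of many of the genes that differed, shown here for 4 that were lower and the 3 that were higher in SK-LMS-1. RefSeq windows on build GRCh38.p14, from 250 bases before to 50 after the start site, were at hand for 24 of the 31 genes. Not searched were OAS2, OASL, IFIT2, IFITM2, MX2, IRF7 and USP18. They were searched on both strands for the core of the interferon-stimulated response element, which is GAAA, any 2 bases and GAAA again, and reads TTTC, any 2 bases and TTTC on the opposite strand. The stretches shown end before the first exon that the count table gives for the gene. They are printed 5′ to 3′ on the strand of the gene, with matches to the core in capitals. The first 4 belong to genes higher in SK-UT-1: IFIT1 at chr10:89392373-89392545 (plus strand), OAS3 at chr12:112938233-112938432 (plus), IFI6 at chr1:27672214-27672413 (minus) and BST2 at chr19:17405649-17405848 (minus). The other 3 belong to the genes higher in SK-LMS-1: DDX60 at chr4:168318808-168319002 (minus), IFI44 at chr1:78649589-78649788 (plus) and IFI44L at chr1:78620198-78620381 (plus).
IFIT1: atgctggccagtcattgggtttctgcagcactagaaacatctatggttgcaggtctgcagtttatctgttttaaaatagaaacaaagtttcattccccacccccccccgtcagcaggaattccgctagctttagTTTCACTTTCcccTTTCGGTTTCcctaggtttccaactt
OAS3: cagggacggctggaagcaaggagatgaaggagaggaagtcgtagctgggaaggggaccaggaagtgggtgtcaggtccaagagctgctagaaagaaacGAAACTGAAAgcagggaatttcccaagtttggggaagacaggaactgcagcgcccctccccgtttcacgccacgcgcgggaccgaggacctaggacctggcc
IFI6: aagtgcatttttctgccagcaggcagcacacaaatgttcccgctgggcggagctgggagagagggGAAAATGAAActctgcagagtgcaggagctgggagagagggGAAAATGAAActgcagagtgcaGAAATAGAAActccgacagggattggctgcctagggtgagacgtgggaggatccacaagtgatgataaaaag
BST2: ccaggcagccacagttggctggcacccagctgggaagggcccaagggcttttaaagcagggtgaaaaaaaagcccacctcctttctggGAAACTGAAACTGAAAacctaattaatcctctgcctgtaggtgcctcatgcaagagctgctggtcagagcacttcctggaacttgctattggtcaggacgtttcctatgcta
DDX60: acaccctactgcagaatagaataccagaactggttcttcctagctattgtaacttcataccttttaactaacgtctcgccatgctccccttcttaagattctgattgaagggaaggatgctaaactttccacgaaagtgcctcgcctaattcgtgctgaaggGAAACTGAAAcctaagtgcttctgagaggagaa
IFI44: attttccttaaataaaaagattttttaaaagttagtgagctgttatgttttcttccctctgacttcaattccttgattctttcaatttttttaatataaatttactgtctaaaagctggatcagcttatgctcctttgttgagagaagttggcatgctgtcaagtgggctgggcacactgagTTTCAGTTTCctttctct
IFI44L: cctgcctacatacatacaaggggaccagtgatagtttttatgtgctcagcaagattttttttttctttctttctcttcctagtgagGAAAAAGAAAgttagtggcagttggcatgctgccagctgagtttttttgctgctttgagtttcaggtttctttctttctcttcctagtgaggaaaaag

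The core stood in front of genes of both directions. IFIT1 has 2 matches on the opposite strand. On the strand of the gene, IFI6 has 3 and BST2 has 2 that overlap. IFI44 has 1 match on the opposite strand, close to the start site. OAS3, DDX60 and IFI44L each have 2 in the whole window, of which 1 lies in the stretch shown. Over the 24 promoters 17 (70.8%) held the core, against 1255 of 35116 windows in the RefSeq table (3.57%). A longer form, with a C after the core, was found in 15 (62.5%) and in 279 of all windows (0.795%). The gamma-activated site TTCNNNGAA, the element of interferon-gamma signalling, which reads the same on both strands, was found in 8 members (33.3%) and in 2689 of all windows (7.66%). Core matches overlapped each other in BST2, HERC5 and ISG15, and overlapped a gamma-activated site in BST2, IFI27 and IFITM1.

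Genes with the core were found in both directions. Of 16 measured members with it, 3 were higher in SK-LMS-1 cells and 8 in SK-UT-1 cells, with a median log2 ratio of -1.19. Of 7 without it, 0 were higher in SK-LMS-1 cells and 2 in SK-UT-1 cells, with a median of -0.24. For comparison, 21.9% of all measured genes passed 2-fold towards SK-LMS-1 and 18.3% towards SK-UT-1. IFITM1, BST2 and IFI27 with the core, and OAS1 and CMPK2 without it, were under 1 CPM in SK-LMS-1. These genes counted as measured only through SK-UT-1, so the filter favours that direction for them. Whether the core goes with a direction was not tested. The genes without a match were OAS1, CMPK2, IFI35, XAF1, STAT2, IRF1 and IRF9. A match describes letters only, and a window without one says only that these letters are not in it.

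**Figure D3:**
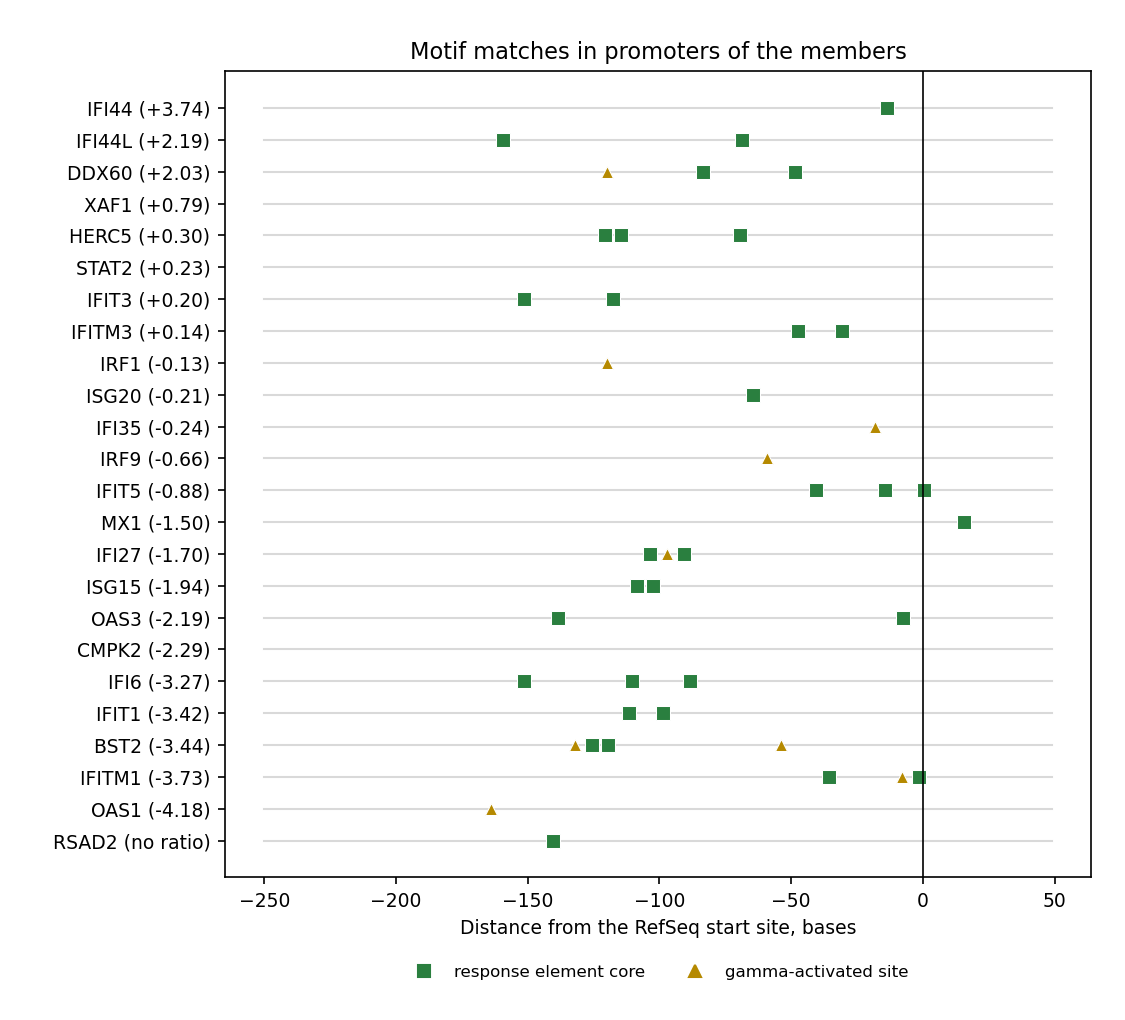
Positions of the response element core (green squares) and the gamma-activated site (yellow triangles) in the 24 promoter windows, in bases from the RefSeq start site at 0. Genes are ordered by their log2 ratio of SK-LMS-1 over SK-UT-1, given in parentheses, with IFI44 (3.74) at the top and OAS1 (-4.18) last of those with a ratio. Matches to the core appear in genes at both ends of the order.

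The IFIT proteins, which bind viral RNA through tetratricopeptide repeats, lie together on chromosome 10 and did not differ as a block. IFIT1 (chr10:89392546-89406487), which binds RNA whose cap lacks methylation, had 84 counts (12.8 CPM) in SK-LMS-1, against 1106 counts (137 CPM) in SK-UT-1. It was 10.7-fold lower in SK-LMS-1 (8.58 to 13.5). IFIT5 (chr10:89414568-89421002), which binds RNA with a 5′ phosphate, lies 8.08 kb beyond it. IFIT5 had 267 counts (40.7 CPM) in SK-LMS-1 cells and 603 (74.9 CPM) in SK-UT-1 cells. It was 1.84-fold lower in SK-LMS-1 (1.59 to 2.13), and past 2-fold under scaling by library totals or the upper quartile. IFIT2 and IFIT3, which form complexes with IFIT1, did not share this difference. IFIT2 (chr10:89301949-89309276) had 126 counts (19.2 CPM) in SK-LMS-1 cells and 114 (14.2 CPM) in SK-UT-1 cells, 1.36-fold higher in SK-LMS-1 (1.05 to 1.76). IFIT3 (chr10:89327819-89340968) had 216 counts (33.0 CPM) in SK-LMS-1 cells and 231 (28.7 CPM) in SK-UT-1 cells, a ratio of 1.15 whose interval (0.950 to 1.39) includes 1. The make-up of the family therefore differed: IFIT1 gave 12.1% of the IFIT counts in SK-LMS-1 cells (9.78 to 14.8) and 53.8% in SK-UT-1 cells (51.7 to 56.0), while IFIT3 gave 31.2% in SK-LMS-1 cells and 11.2% in SK-UT-1 cells.

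The 4 genes of the 2-5A synthetase group were lower in SK-LMS-1, 3 of them beyond counting error. OAS1, OAS2 and OAS3 encode enzymes that sense double-stranded RNA and make the 2-5A that activates RNase L, and lie side by side on chromosome 12. OAS3 (chr12:112938433-112973249) had 200 counts (30.5 CPM) in SK-LMS-1, against 1121 counts (139 CPM) in SK-UT-1, 4.56-fold lower in SK-LMS-1 (3.92 to 5.33). OAS2 (chr12:112978469-113011723) had 14 counts (2.14 CPM) in SK-LMS-1 cells and 125 (15.5 CPM) in SK-UT-1 cells, 7.27-fold lower in SK-LMS-1 (4.17 to 13.7). OAS1 (chr12:112906934-112919907) had 3 counts in SK-LMS-1 cells and 67 (8.32 CPM) in SK-UT-1 cells, 18.2-fold lower in SK-LMS-1 with a wide interval (5.96 to 90.4). The intervals of these 3 genes lie wholly beyond 2-fold. OASL (chr12:121020292-121039242), a relative without synthetase activity that binds the sensor RIG-I, lies elsewhere on the chromosome. It had 6 counts in SK-LMS-1 cells and 17 in SK-UT-1 cells, and its ratio of 2.31-fold lower in SK-LMS-1 was not detectable at this depth (0.868 to 7.15). OAS3 gave most of the family counts in both libraries, 89.7% in SK-LMS-1 cells and 84.3% in SK-UT-1 cells.

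Both MX genes, which encode dynamin-like GTPases that trap viral nucleocapsids or block nuclear entry, were lower in SK-LMS-1. MX1 (chr21:41420558-41459214) had 33 counts (5.04 CPM) in SK-LMS-1 cells and 115 (14.3 CPM) in SK-UT-1 cells, 2.84-fold lower in SK-LMS-1 (1.91 to 4.31). MX2 (chr21:41362023-41408942), 11.6 kb away, had 0 counts in SK-LMS-1, for which the floor of 3 counts stands at 0.458 CPM and the exact 95% upper limit at 0.563 CPM, and 13 counts (1.62 CPM) in SK-UT-1. Against that floor it was at least 3.53-fold lower in SK-LMS-1, with a lower limit of 2.48-fold from the exact interval.

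The membrane proteins that restrict virus entry and release were also uneven. IFITM1, IFITM2 and IFITM3 block fusion of viruses with the cell or its endosomes, and lie within a short stretch of chromosome 11. IFITM3 (chr11:319673-320914), which acts in endosomes, had 123 counts (18.8 CPM) in SK-LMS-1 cells and 137 (17 CPM) in SK-UT-1 cells, a ratio of 1.1 (0.857 to 1.42). IFITM1 (chr11:313991-315272), which acts mainly at the cell surface, had 3 counts in SK-LMS-1 cells and 49 (6.09 CPM) in SK-UT-1 cells, 13.3-fold lower in SK-LMS-1 (4.29 to 66.7), although the genes are only 4.40 kb apart. IFITM2 (chr11:308107-309410) stood between them, with 31 counts (4.73 CPM) in SK-LMS-1 cells and 104 (12.9 CPM) in SK-UT-1 cells, 2.73-fold lower in SK-LMS-1 (1.81 to 4.22). IFITM3 thus gave 78.3% of the IFITM counts in SK-LMS-1 cells (71.1 to 84.5) and 47.2% in SK-UT-1 cells (41.4 to 53.2). The IFITM values are uncertain, because 32.0% of the 50-base windows of IFITM1, 34.3% of those of IFITM2 and 35.2% of those of IFITM3 also occur in transcripts of another gene. When genes that overlap them in GENCODE are left out, the shares were 9.18% for IFITM1, 17.6% for IFITM2 and 17.4% for IFITM3. BST2 (chr19:17402939-17405648), or tetherin, which holds budding virus at the cell surface, had 0 counts in SK-LMS-1 cells and 40 (4.97 CPM) in SK-UT-1 cells, at least 10.9-fold lower in SK-LMS-1 against the floor, with a lower limit of 8.43-fold from the exact interval.

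Among the other antiviral enzymes, DDX60 ran against the group. DDX60 (chr4:168216291-168318807), an RNA helicase linked to RIG-I signalling, had 229 counts (34.9 CPM) in SK-LMS-1 cells and 69 (8.57 CPM) in SK-UT-1 cells, 4.08-fold higher in SK-LMS-1 (3.10 to 5.42). Its neighbour and close relative DDX60L, 37.9 kb away and chosen for its position after the values were seen, stood at 106 CPM in SK-LMS-1 cells and 41.6 CPM in SK-UT-1 cells, 2.54-fold higher in SK-LMS-1 (2.23 to 2.90). CMPK2 (chr2:6840553-6866635), a mitochondrial nucleotide kinase, had 2 counts in SK-LMS-1 cells and 18 in SK-UT-1 cells. It was 7.33-fold lower in SK-LMS-1 (1.75 to 65.1), or 4.88-fold lower with the count raised to 3. RSAD2 (chr2:6877665-6898232), which encodes viperin, a maker of chain-terminating nucleotides, was not measured, with 0 counts in SK-LMS-1 cells and 1 in SK-UT-1 cells. These adjacent genes were thus near the limit of detection in SK-LMS-1. ISG20 (chr15:88635637-88656344), a 3′ exonuclease for RNA, had 12 counts in SK-LMS-1 cells and 17 in SK-UT-1 cells, with no detectable difference (1.15-fold lower in SK-LMS-1, 0.519 to 2.65).

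Of the ISG15 conjugation members, the modifier differed, whereas HERC5 and USP18 did not detectably. ISG15 (chr1:1013467-1014539), a ubiquitin-like protein, had 32 counts (4.88 CPM) in SK-LMS-1 cells and 151 (18.8 CPM) in SK-UT-1 cells, 3.84-fold lower in SK-LMS-1 (2.61 to 5.82). HERC5 (chr4:88457117-88506168), the main ligase that attaches it, had 32 counts in each library, a ratio of 1.23 after scaling (0.729 to 2.07). USP18 (chr22:18149991-18177395), which removes ISG15 and also dampens the interferon receptor, had 17 counts in SK-LMS-1 cells and 12 in SK-UT-1 cells, a ratio of 1.74 (0.783 to 3.99). The activating and carrier enzymes of the pathway, which are not among the 31 and were added after their values were seen, differed in opposite directions. UBA7 had 8.39 CPM in SK-LMS-1 cells and 3.98 CPM in SK-UT-1 cells, 2.11-fold higher in SK-LMS-1 (1.34 to 3.37). UBE2L6 had 16.6 CPM in SK-LMS-1 cells and 26.3 CPM in SK-UT-1 cells, 1.58-fold lower in SK-LMS-1 (1.25 to 2.01). USP18 shares 23.4% of its 50-base windows with other genes, mostly USP41, and is uncertain.

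The genes named IFI ran in both directions. IFI44 (chr1:78649792-78664078) and IFI44L (chr1:78620382-78646145), related genes 3.65 kb apart, were both higher in SK-LMS-1. IFI44, a cytoplasmic protein, had 98 counts (15.0 CPM) in SK-LMS-1 cells and 9 (1.12 CPM) in SK-UT-1 cells, 13.4-fold higher in SK-LMS-1 (6.76 to 30.1). IFI44L had 41 counts (6.26 CPM) in SK-LMS-1 cells and 11 (1.37 CPM) in SK-UT-1 cells, 4.58-fold higher in SK-LMS-1 (2.31 to 9.88). IFI6 (chr1:27666061-27672213), a small membrane protein that blocks cell death and flavivirus replication, went the opposite way. It had 16 counts (2.44 CPM) in SK-LMS-1 cells and 190 (23.6 CPM) in SK-UT-1 cells, 9.67-fold lower in SK-LMS-1 (5.80 to 17.3). IFI27, a related small membrane protein, had 1 count in SK-LMS-1 cells and 12 in SK-UT-1 cells. It was 9.77-fold lower in SK-LMS-1 (1.45 to 418), or 3.26-fold lower with the count raised to 3. IFI27 is uncertain, because the table also places it on an alternate contig beside chromosome 14. IFI35 (chr17:43006725-43014459), a partner of NMI, had 40 counts in SK-LMS-1 cells and 58 in SK-UT-1 cells, with no detectable difference (1.18-fold lower in SK-LMS-1, 0.776 to 1.81). XAF1 (chr17:6755837-6775645), which antagonizes the apoptosis inhibitor XIAP, had 66 counts (10.1 CPM) in SK-LMS-1 cells and 47 (5.84 CPM) in SK-UT-1 cells, 1.72-fold higher in SK-LMS-1 (1.17 to 2.56). XAF1 shares 34.7% of its 50-base windows with other genes in GENCODE, and 0.153% with genes that do not overlap it.

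The transcription factors among the members all lay within 2-fold, except that IRF7 passed it towards SK-UT-1 under scaling by library totals. STAT2 (chr12:56341598-56360253) had 290 counts (44.3 CPM) in SK-LMS-1 cells and 303 (37.6 CPM) in SK-UT-1 cells, a ratio of 1.18 (0.997 to 1.39). IRF9 (chr14:24161213-24166566), the DNA-binding part of ISGF3, had 54 counts (8.24 CPM) in SK-LMS-1 cells and 105 (13.0 CPM) in SK-UT-1 cells, 1.58-fold lower in SK-LMS-1 (1.13 to 2.24). IRF1 (chr5:132481609-132490773), an activator induced most strongly by interferon-gamma, had 151 counts (23.0 CPM) in SK-LMS-1 cells and 203 (25.2 CPM) in SK-UT-1 cells, with no detectable difference (1.09-fold lower in SK-LMS-1, 0.882 to 1.36). IRF7, the master activator of type I interferon genes, had 21 counts (3.20 CPM) in SK-LMS-1 cells and 47 (5.84 CPM) in SK-UT-1 cells, 1.82-fold lower in SK-LMS-1 (1.07 to 3.21), and is uncertain because the table also lists it on an alternate contig beside chromosome 11. Windows of 50 bases shared with other GENCODE genes made up 22% of those of IRF1 and 43.8% of those of IRF9, and 2.55% and 0.628% when genes that overlap them are left out.

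Counting error alone left 9 of the 30 ratios with an interval that includes 1. The interval lay wholly above 1 for 5 members and wholly below 1 for 16, against 37.9% and 36.3% of all measured genes. By role the medians ran from -2.53 on the log2 scale for the 2-5A synthetases and -2.44 for the IFITM and tetherin group to 0.27 for the IFI-named genes with XAF1 and 0.30 for ISG15 conjugation. The IFIT median was -0.34 and that of the transcription factors -0.40.

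Per kilobase of exon, which allows genes to be compared, different members led in each library. In SK-LMS-1 IFITM3 stood highest at 28.1 CPM per kb, above 81.8% of measured genes, followed by IFIT3 at 11.6 and IFIT5 at 10.1. In SK-UT-1 IFIT1 (29.1), ISG15 (28.2), IFI6 (27.5), IFITM3 (25.5) and OAS3 (21.0) led, each above at least 77.1% of measured genes. IFIT1, ISG15 and IFI6 stood at 2.71, 7.33 and 2.84 CPM per kb in SK-LMS-1, above 29%, 49.2% and 29.6% of measured genes. IFI44 showed the opposite, at 8.67 CPM per kb in SK-LMS-1 (above 53.3%) and 0.648 in SK-UT-1 (above 14.8%).

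Transcripts of the interferons themselves were at or near the limit of detection in both libraries. The list read here holds type I and type III interferon genes together with IFNG, which encodes interferon-gamma. Of its 21 genes 20, with IFNG among them, had 0 counts in each library. The floor of 3 counts stands at 0.458 CPM in SK-LMS-1 cells and 0.373 CPM in SK-UT-1 cells. The exact 95% upper limit of 0 counts, as for IFNA1, was 0.563 CPM in SK-LMS-1 cells and 0.458 CPM in SK-UT-1 cells. IFNE, the interferon of the female reproductive tract, had 0.916 CPM (6 counts) in SK-LMS-1 cells and 1.49 CPM (12 counts) in SK-UT-1, a ratio of 0.614 (0.189 to 1.77).

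The receptors lay within 2-fold except for that of type III interferon. IFNLR1, the specific chain of the interferon-lambda receptor, had 0.610 CPM in SK-LMS-1 cells and 12.1 CPM in SK-UT-1 cells, 19.7-fold lower in SK-LMS-1 (7.47 to 73.9). IL10RB, its partner chain, had 9.46 CPM in SK-LMS-1 cells and 7.70 CPM in SK-UT-1 cells (ratio 1.23, 0.85 to 1.78). The type I receptor chain IFNAR1 had 116 CPM in SK-LMS-1 cells and 89.1 CPM in SK-UT-1 cells, 1.31-fold higher in SK-LMS-1 (1.18 to 1.45). IFNAR2, the other chain, did not differ detectably, at 18.9 CPM in SK-LMS-1 cells and 20.5 CPM in SK-UT-1 cells (ratio 0.923, 0.725 to 1.17). For interferon-gamma, IFNGR1 had 36.9 CPM in SK-LMS-1 cells and 20.1 CPM in SK-UT-1 cells, 1.83-fold higher in SK-LMS-1 (1.5 to 2.25). IFNGR2, listed at more than 1 place and uncertain, had 51.3 CPM in SK-LMS-1 cells and 71.4 CPM in SK-UT-1 cells.

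The signalling chain below the receptors was present in both lines. JAK1 had 414 CPM in SK-LMS-1 cells and 269 CPM in SK-UT-1 cells, 1.54-fold higher in SK-LMS-1 (1.46 to 1.63). TYK2 had 37.7 CPM in SK-LMS-1 cells and 45.7 CPM in SK-UT-1 cells, and JAK2, the kinase of the interferon-gamma receptor, 40.4 CPM in SK-LMS-1 cells and 47.2 CPM in SK-UT-1 cells. STAT3, which serves mainly cytokines of the IL-6 family, was the gene past 2-fold here, with 76.5 CPM in SK-LMS-1 cells and 184 CPM in SK-UT-1 cells, 2.41-fold lower in SK-LMS-1 (2.17 to 2.67). Of 9 measured inhibitors of 11, 1 (11.1%) was higher in SK-LMS-1 cells and 1 (11.1%) in SK-UT-1 cells. Over all measured genes the shares were 21.9% towards SK-LMS-1 and 18.3% towards SK-UT-1. SOCS3, which blocks JAK kinases, had 24.9 CPM in SK-LMS-1 cells and 3.23 CPM in SK-UT-1 cells, 7.70-fold higher in SK-LMS-1 (5.07 to 12.1), whereas the phosphatase PTPN11 (498 CPM in SK-LMS-1, 661 CPM in SK-UT-1) and TRIM24 (111 CPM in SK-LMS-1, 132 CPM in SK-UT-1) lay within 2-fold.

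The RNA sensors IFIH1 and DDX58 were lower in SK-LMS-1 and the adaptors TMEM173 and MAVS higher. Of 15 measured genes of nucleic acid sensing of 16, 2 (13.3%) were higher in SK-LMS-1 cells, against 21.9% of all measured genes. Another 4 (26.7%) were higher in SK-UT-1 cells, against 18.3%, and the median log2 ratio of the list was -0.39. IFIH1, which encodes the double-stranded RNA sensor MDA5, had 11.4 CPM in SK-LMS-1 cells and 68.6 CPM in SK-UT-1 cells, 5.99-fold lower in SK-LMS-1 (4.70 to 7.73). DDX58, which encodes RIG-I, had 17.6 CPM in SK-LMS-1 cells and 41.0 CPM in SK-UT-1 cells, 2.34-fold lower in SK-LMS-1 (1.88 to 2.91). ADAR, which edits double-stranded RNA, was 2.03-fold lower in SK-LMS-1 (1.92 to 2.15). On the other side, TMEM173, which encodes the DNA pathway adaptor STING, had 13.3 CPM in SK-LMS-1 cells and 3.23 CPM in SK-UT-1 cells, 4.11-fold higher in SK-LMS-1 (2.63 to 6.64). MAVS, the mitochondrial adaptor of RIG-I and MDA5, stood 2.52-fold higher in SK-LMS-1 (2.32 to 2.75). EIF2AK2, the kinase PKR that double-stranded RNA activates, lay within 2-fold (223 CPM in SK-LMS-1, 271 CPM in SK-UT-1), as did SAMHD1, which degrades nucleotides (128 CPM in SK-LMS-1, 117 CPM in SK-UT-1). A further list held 10 interferon regulatory factors and their binding partners. Of its 7 measured genes, 1 (14.3%) was higher in SK-LMS-1 cells and 1 (14.3%) in SK-UT-1 cells, against 21.9% and 18.3% of all measured genes. The gene higher in SK-LMS-1 was IRF2BPL, a binding protein of IRF2, 3.09-fold higher in SK-LMS-1 (2.43 to 3.95). Its relative IRF2BP2 (82.9 CPM in SK-LMS-1, 103 CPM in SK-UT-1) lay within 2-fold, as did IRF2, a repressor of interferon responses (21.2 CPM in SK-LMS-1, 12.3 CPM in SK-UT-1).

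A separate list of interferon-stimulated genes stood on the other side of 0 from the 31. Of 35 measured genes of 42, 13 (37.1%) stood higher in SK-LMS-1 by 2-fold or more, against 21.9% of all measured genes. Another 5 (14.3%) were higher in SK-UT-1 by as much, against 18.3% of all measured genes. The median log2 ratio of the 35 was 0.53. Of the 13, EPSTI1, TNFSF10, TRIM22 and TMEM140 were under 1 CPM in SK-UT-1 and counted as measured only through SK-LMS-1. The filter itself favours that direction for them. SAMD9L, an antiviral and growth-restraining protein, had 102 CPM in SK-LMS-1 cells and 5.72 CPM in SK-UT-1 cells, 17.8-fold higher in SK-LMS-1 (13.2 to 24.5). TMEM140, a membrane protein, had 46 counts in SK-LMS-1 cells and 4 in SK-UT-1 cells, 14.1-fold higher in SK-LMS-1 (5.16 to 54.0). TDRD7, an inhibitor of autophagy used by viruses, had 39.4 CPM in SK-LMS-1 cells and 3.60 CPM in SK-UT-1 cells, 10.9-fold higher in SK-LMS-1 (7.43 to 16.6). In the other direction IFI30, a lysosomal thiol reductase, was 6.59-fold lower in SK-LMS-1 (4.18 to 10.9), the mono-ADP-ribosyltransferase PARP10 3.82-fold lower (2.49 to 6.08) and LGALS3BP, a secreted glycoprotein, 3.55-fold lower (3.15 to 4.01). The most abundant genes within 2-fold were RNF213, a large ubiquitin ligase (264 CPM in SK-LMS-1, 200 CPM in SK-UT-1), and ZNFX1, a helicase-like RNA sensor (213 CPM in SK-LMS-1, 127 CPM in SK-UT-1). Genes counted as interferon-stimulated thus lay on both sides, and the median depended on which list was read.

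Genes known mainly as targets of interferon-gamma were split evenly. Of 20 measured genes of 24, 3 (15.0%) were higher in SK-LMS-1 cells and 3 (15.0%) in SK-UT-1 cells. Over all measured genes the shares were 21.9% towards SK-LMS-1 and 18.3% towards SK-UT-1. The median log2 ratio of the list was -0.34, which turned to 0.36 without the uncertain genes. CD274, which encodes the checkpoint ligand PD-L1, had 59.2 CPM in SK-LMS-1 cells and 3.11 CPM in SK-UT-1 cells, 19.1-fold higher in SK-LMS-1 (12.7 to 29.8). The guanylate-binding GTPases GBP2 (8.80-fold, 3.73 to 25.3) and GBP3 (2.14-fold, 1.86 to 2.46) were higher in SK-LMS-1 as well. SECTM1, a secreted and membrane protein, had 3 counts (0.458 CPM) in SK-LMS-1 cells and 7.45 CPM in SK-UT-1 cells, 16.3-fold lower in SK-LMS-1 (5.31 to 81.2). GBP2 (0.745 CPM in SK-UT-1) counted as measured only through SK-LMS-1, and SECTM1 only through SK-UT-1. HLA-B (61.0 CPM in SK-LMS-1, 140 CPM in SK-UT-1), which presents peptides to T cells, was past 2-fold lower in SK-LMS-1 but is listed at several places and uncertain. Within 2-fold the most abundant were WARS, the tryptophanyl-tRNA synthetase (265 CPM in SK-LMS-1, 191 CPM in SK-UT-1), and B2M, the light chain of class I molecules, which is uncertain (207 CPM in SK-LMS-1, 321 CPM in SK-UT-1). The 8 pathway lists outside the members held 98 measured genes of 135. Of these, 20 (20.4%) were higher in SK-LMS-1 cells and 16 (16.3%) in SK-UT-1 cells, near the 21.9% and 18.3% of all measured genes. The median of the 98 was -0.03, or 0.0100 without the uncertain genes. With library totals as scaling, 17 stood higher in SK-LMS-1 and 20 did in SK-UT-1, so neither side led under both scalings.

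**Figure D4:**
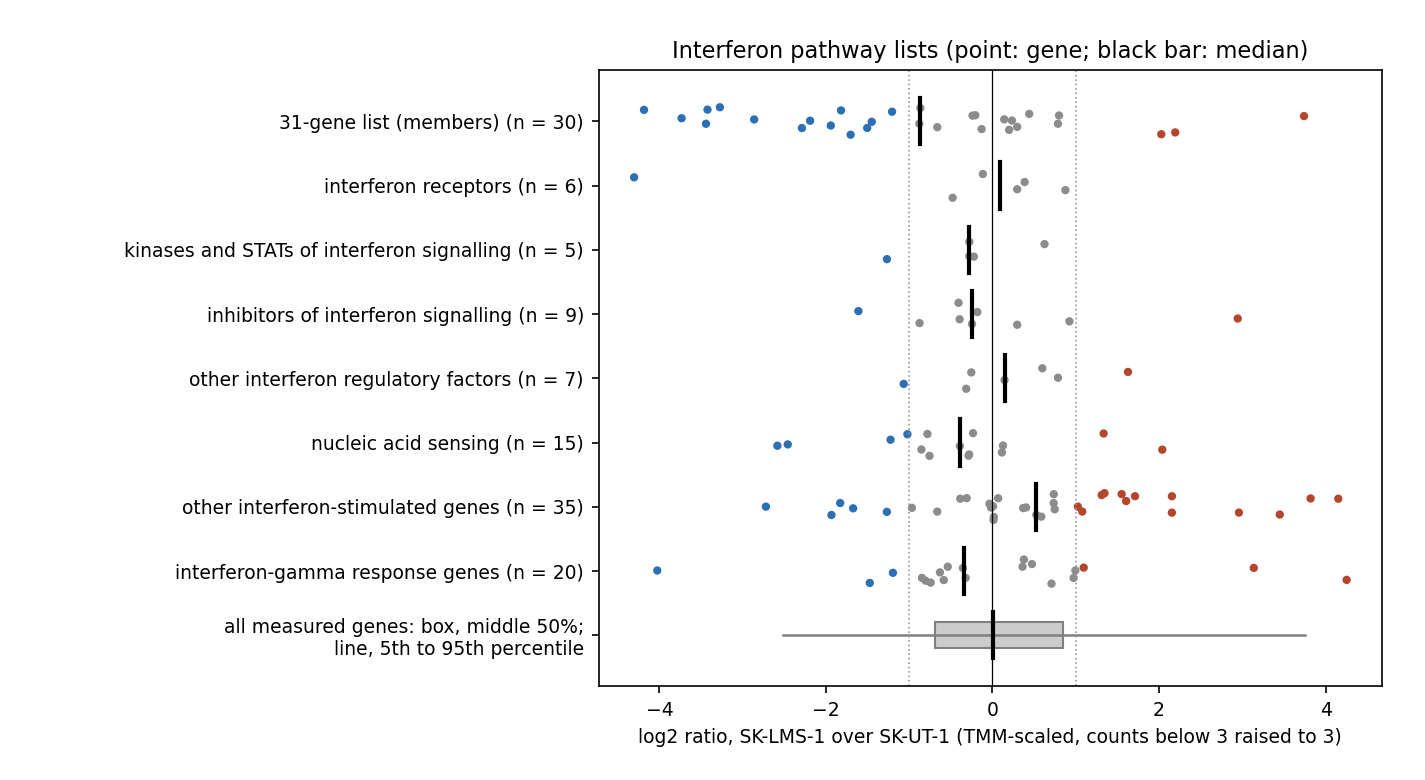
log2 ratio of SK-LMS-1 over SK-UT-1 for each measured gene of the 31-gene list and of 7 interferon pathway lists, with the number of measured genes, medians as black bars and dotted lines at 2-fold. Red and blue points mark genes higher in SK-LMS-1 cells and in SK-UT-1 cells by 2-fold or more, and the bottom row gives all measured genes. The 31-gene list has a median of -0.87, the other interferon-stimulated genes 0.53 and all measured genes 0.01.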

How the data were processed

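Total RNA libraries were made with a stranded SMARTer kit, per the labels' protocols. The deposited values are raw counts per gene from featureCounts 2.0.1 on hg38. The file headers record fragments over exons grouped by gene name, strand setting 1, and a fragment counted for every gene it overlaps. The aligner was not given in the sources used here. Another 2 columns of counts match neither sample and were not used. The 31 genes and the gene lists were chosen with earlier results of these data known, and 162 of 162 list symbols matched, 5 through an older symbol.

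TMM scaling used edgeR 4.0.16 in R 4.3.3 (SK-LMS-1 factor 0.949, SK-UT-1 factor 1.05), and the rest Python 3.11.15 with scipy 1.17.1. Genes under 1 CPM in both libraries, or at 3 counts or fewer in both, were left out. Counts below 3 were raised to 3 for the 2-fold rule and the medians. A fold against 0 counts is written as at least the fold against that floor. Intervals, like floors, cover counting error only. Reads copied by PCR and lacking molecular identifiers are not independent molecules. Transcript windows of 50 bases were compared over GENCODE v29. A gene on several contigs is marked uncertain. A comparison of protein sequences was planned and not analysed here. The ratio and its interval were tested on simulated data. Promoters are RefSeq windows on GRCh38.p14, the nearest to the gene's start where there were several.

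Named genes were all 31 members and all measured ligands, receptors, kinases and STATs. From each other list up to 3 per direction at 5 CPM and 2-fold were named, plus up to 2 within 2-fold with the highest CPM. Marker lists are given as counts. Some genes that this rule names are not reported here. Results were recomputed with library totals, size factors of DESeq2 1.42.0 and the upper quartile as scaling, and with other filters, floors and fold rules.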

Additional observations from a re-analysis of the deposited data

How the results depend on the processing

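The direction of the 31-gene list did not depend on scaling: 3 members were higher in SK-LMS-1 cells and 14 to 16 in SK-UT-1 cells. IFIT5 and IRF7 passed 2-fold under library totals, and IFIT5 did so under the upper quartile. Library totals and the upper quartile moved the median of all measured genes to -0.155 and -0.137 on the log2 scale, and all-gene calls to 2815 higher in SK-LMS-1 and 3122 higher in SK-UT-1 under library totals, where TMM gave 3140 towards SK-LMS-1 and 2618 towards SK-UT-1. Beside the lack of replicates, depth is a limit: 22 of the 30 measured members had 10 counts or more in both libraries. With those alone, 7 members were higher in SK-UT-1 by 2-fold or more and the median was -0.22, against -0.00195 over all such genes. At 5 CPM in the higher library, 3 members were higher in SK-LMS-1 cells (2319 of all genes) and 9 in SK-UT-1 cells (1720 genes). With the whole interval beyond 2-fold, 3 were higher in SK-LMS-1 cells and 9 in SK-UT-1 cells, against 15.1% and 10.1% of all measured genes. At 4-fold 3 members were higher in SK-LMS-1 cells and 8 in SK-UT-1 cells, against 11.4% and 7.30%. Each of these counts towards SK-UT-1 includes OAS1 and IFITM1, which were under 1 CPM in SK-LMS-1. At 1.5-fold 5 members were higher in SK-LMS-1 cells (4405 of all 14324 genes) and 17 in SK-UT-1 cells (4053 genes). The share of all counts depended on the most abundant members: without OAS3 it was 0.0291% in SK-LMS-1 cells and 0.0525% in SK-UT-1 cells, and without OAS3, IFIT1 and IFIT5 (chosen after seeing the data) 0.0240% in SK-LMS-1 cells and 0.0301% in SK-UT-1 cells.

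Over the pathway lists outside the members, 32 genes were higher in SK-LMS-1 cells at 1.5-fold and 27 in SK-UT-1 cells. At 4-fold 10 were higher in SK-LMS-1 cells and 5 in SK-UT-1 cells, against 11.4% and 7.30% of all measured genes. With the whole interval beyond 2-fold, 16 were higher in SK-LMS-1 cells and 10 in SK-UT-1 cells, against 15.1% and 10.1%. At 2-fold both library totals and the upper quartile gave 17 towards SK-LMS-1, with 20 and 19 towards SK-UT-1. Their median turned to 0.0100 both at 5 CPM and without uncertain genes. Medians near 0 changed sign elsewhere too: the receptors at -0.0612 (library totals) and -0.0432 (upper quartile), the other regulatory factors at -0.00712 (library totals), the interferon-gamma genes at 0.0279 (5 CPM) and 0.36 (without uncertain genes), and all genes at -0.0252 with no CPM filter. No paired analysis was possible because each line has 1 library.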
